A study of Mus musculus with 2 samples.

Results

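The BAFF and CD40 survival pathway was represented by 8 genes: the ligand gene Tnfsf13b, the receptor genes Tnfrsf13c, Tnfrsf13b, Tnfrsf17 and Cd40, and the signalling genes Traf2, Traf3 and Map3k14. These are 8 of 22350 protein-coding genes on chromosomes 1 to 19 and X, and they were chosen by name, for their place in the pathway. The DNase I hypersensitive sites (DHS) of a gene were the peaks that overlapped its body or the 50 kb on either side. Together the 8 windows covered 1054.9 kb and held 82 of 47474 DHS, with no DHS in more than 1 window.

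BAFF is a cytokine of the TNF family that keeps mature B cells alive, and its main survival receptor on these cells is BAFF-R, the product of Tnfrsf13c. TACI (Tnfrsf13b) and BCMA (Tnfrsf17) also bind BAFF and its relative APRIL, and BCMA is known for its role in plasma cells. CD40 receives help from T cells through its own ligand. In resting B cells a complex of TRAF2 and TRAF3 keeps the kinase NIK (Map3k14) low, and engagement of BAFF-R or CD40 removes TRAF3, so that NIK accumulates and starts the non-canonical NF-kB pathway.

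The cells were B cells from the spleen of C57/Bl6 animals, 8 weeks old, of genotype Trp53+/+ and with mock treatment, enriched on B220 MicroBeads. DNase I, an enzyme that prefers open chromatin, was applied to nuclei, and regions rich in the resulting fragments were called as peaks. The data are 1 peak list from 1 library, with an input library of the same genotype and treatment that was not used here apart from any part it had in the calling. The number and sex of the animals were not stated, B220 is also carried by some cells that are not B cells, and the library had no replicate, so no difference below has a replicate check.

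Each peak carries a score of the peak caller MACS whose scale is not stated, and it was used here only to order DHS within the list, so the size of a difference between scores has no stated meaning. Over all 47542 peaks it ran from 5.05 to 619.44, with a median of 32.65 over chromosomes 1 to 19 and X. The list gives no read counts, so its depth is unknown, and a place without a DHS is a place where none was called. The promoter of a gene began 5 kb before and ended 2 kb after any of its annotated transcription start sites (TSSs), and a DHS outside the promoters of all genes was called distal.

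Over all protein-coding genes the share with a promoter DHS was 57.0%, and the marker counts below stand beside that share. Among B cell markers, 8 of 8 genes had a promoter DHS, with highest scores from 83.97 to 269.18. Of 7 T cell markers 1 had a promoter DHS, with a score of 24.5. Of 7 myeloid markers 5 had one, with scores from 12.31 to 57.27, while Csf1r and Lyz2 had none. Both plasma cell markers had a promoter DHS, Sdc1 with a score of 40.96 and Prdm1 with 141.62. Of 3 erythroid markers 1 had one, Klf1. Its score of 177.81 exceeded that of 5 of the 8 B cell markers, but the annotated TSS of Klf1 lay outside the DHS. Gata1 and Hbb-b1 had no promoter DHS. Siglech, a marker of plasmacytoid dendritic cells, had none. What part other cells had in the DHS of the pathway genes was not tested.

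The DNA at some of the gene starts and in some of the DHS inside gene bodies is shown first. Promoter DHS were called over the whole promoter and not over these stretches. Each run below is 200 bases, read 5′ to 3′ on the strand of its gene, from the mm9 genome. The first group holds the bases directly upstream of the gene start. These are Tnfrsf13c at chr15:82054791-82054990 (minus strand) and Cd40 at chr2:164880927-164881126 (plus strand), both inside a DHS, and Traf3 at chr12:112404381-112404580 (plus strand), Tnfrsf17 at chr16:11313705-11313904 (plus strand) and Tnfsf13b at chr8:10006643-10006842 (plus strand), which lay outside the DHS in whole. Capitals mark the matches to 1 of 8 words of B cell and inducible transcription factors, which are given with the motif counts, 7 by their letters and NF-kB by name.
Tnfrsf13c upstream: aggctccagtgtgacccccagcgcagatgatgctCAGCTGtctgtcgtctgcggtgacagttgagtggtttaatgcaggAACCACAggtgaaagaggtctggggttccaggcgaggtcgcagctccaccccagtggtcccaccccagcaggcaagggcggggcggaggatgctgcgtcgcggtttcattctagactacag
Cd40 upstream: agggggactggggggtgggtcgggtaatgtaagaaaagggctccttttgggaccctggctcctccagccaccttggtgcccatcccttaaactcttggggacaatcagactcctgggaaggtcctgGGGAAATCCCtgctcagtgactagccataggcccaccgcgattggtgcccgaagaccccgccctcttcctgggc
Traf3 upstream: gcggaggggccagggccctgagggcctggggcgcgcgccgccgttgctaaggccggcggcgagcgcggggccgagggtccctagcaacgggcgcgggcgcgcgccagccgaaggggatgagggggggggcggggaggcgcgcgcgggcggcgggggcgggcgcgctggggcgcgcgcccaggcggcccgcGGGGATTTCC
Tnfrsf17 upstream: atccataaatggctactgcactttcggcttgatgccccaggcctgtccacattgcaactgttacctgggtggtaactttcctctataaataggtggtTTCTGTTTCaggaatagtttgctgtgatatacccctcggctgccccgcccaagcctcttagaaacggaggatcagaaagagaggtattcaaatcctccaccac
Tnfsf13b upstream: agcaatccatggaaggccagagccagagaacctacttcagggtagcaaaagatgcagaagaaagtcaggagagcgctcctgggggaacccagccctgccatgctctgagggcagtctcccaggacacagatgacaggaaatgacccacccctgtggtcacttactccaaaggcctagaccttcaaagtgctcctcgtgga

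The Tnfrsf13c run held an E box word and, nearest the gene start of the pair, a Runx word on the opposite strand. The Cd40 run held an NF-kB word 65 to 74 bp upstream of the gene start, and the Traf3 run held one in its last 10 bases, directly before the gene start. The Tnfrsf17 run held an ISRE word on the opposite strand, and the Tnfsf13b run held none of the 8 words. The upstream runs of Tnfrsf13b, Traf2 and Map3k14, which are not shown, also held none, and the 5 runs shown were chosen after the matches were seen. Over all 8 genes the NF-kB word lay in 2 runs, against 3.46% of 22345 protein-coding genes. The ISRE word lay in 1 (5.96% of genes), the Runx word in 1 (3.33%), the E box word in 1 (9.64%) and each of the other 4 words in 0.

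The second group shows exon-free stretches from the DHS inside gene bodies that stood out by score or by place. The Traf2 run is at chr2:25390028-25390227 (minus strand, intron 4), the Tnfrsf13b run at chr11:60957019-60957218 (plus strand, intron 3) and the Tnfrsf17 run at chr16:11317083-11317282 (plus strand, intron 2). None of the 8 words lay in these runs, which therefore carry no capitals.
Traf2 intron 4: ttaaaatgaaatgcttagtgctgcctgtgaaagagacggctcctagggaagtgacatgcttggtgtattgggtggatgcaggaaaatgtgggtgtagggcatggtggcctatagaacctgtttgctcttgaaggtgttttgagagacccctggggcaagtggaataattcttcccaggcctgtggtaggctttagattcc
Tnfrsf13b intron 3: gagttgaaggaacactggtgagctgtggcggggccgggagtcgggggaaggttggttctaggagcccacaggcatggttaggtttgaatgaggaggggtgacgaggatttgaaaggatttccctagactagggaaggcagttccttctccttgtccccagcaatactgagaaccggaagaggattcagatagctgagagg
Tnfrsf17 intron 2: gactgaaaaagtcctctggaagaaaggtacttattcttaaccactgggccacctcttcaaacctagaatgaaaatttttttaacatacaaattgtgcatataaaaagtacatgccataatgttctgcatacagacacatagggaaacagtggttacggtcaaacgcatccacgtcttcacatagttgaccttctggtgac

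Promoter DHS were found at 6 of the 8 genes, against 57.0% of all protein-coding genes. The genes with one were Tnfrsf13c, Tnfrsf13b, Cd40, Traf2, Traf3 and Map3k14, and those without were the ligand gene Tnfsf13b and the BCMA gene Tnfrsf17. In all 6 the highest promoter score was above the median of the list, against 50.3% of genes. The same 6 genes had a DHS within 1 kb of a TSS, against 53.7%. For 8 genes, the genome's share of 57.0% corresponds to 4.56 genes, so the count of 6 lies near the background.

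The order of the promoter scores ran as follows. Map3k14 (140.88), Tnfrsf13b (139.47), Cd40 (137.57) and Traf3 (127.12) ranked highest, between the 79.9th and the 83.5th percentile of all protein-coding genes. Tnfrsf13c (78.77) and Traf2 (61.11) were lower, at the 63.5th and the 57.7th percentile. Tnfsf13b and Tnfrsf17 had no promoter DHS and share the lowest rank with all other such genes. The median over the 8 genes was 102.945 against 33.51 over all genes, but among genes that had a promoter DHS at all the median was 101.22, and 132.345 for the 6 pathway genes. Among those genes, Tnfrsf13c stood at the 36.0th and Traf2 at the 25.9th percentile. The promoters of BAFF-R and TRAF2 thus scored below the middle of all promoters with a DHS, while the other 4 scored above it. The rank of TACI rested on a DHS in intron 3, inside the promoter windows of internal starts, and with the gene start alone its score was 78.95, also below the median of 101.22.

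**Figure D1:**
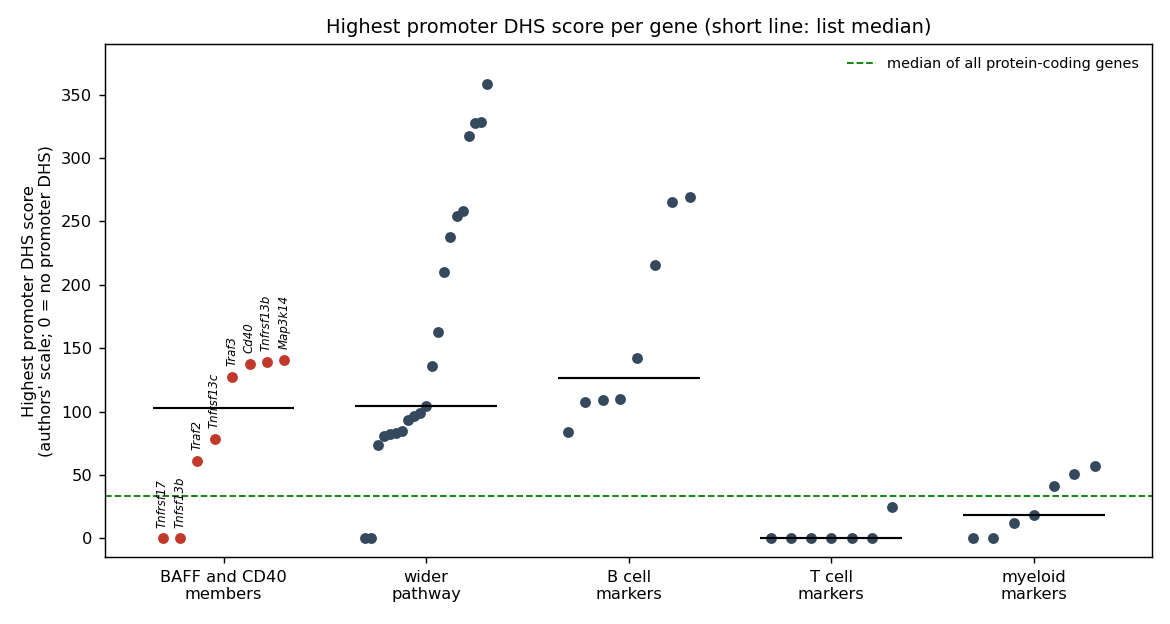
Highest promoter DHS score of each gene (vertical axis, the authors' score, 0 where no promoter DHS was called) for the 8 BAFF and CD40 genes, the wider pathway and the B cell, T cell and myeloid markers; each point is a gene, short lines are list medians and the dashed line is the median of all protein-coding genes (33.51). Of the 8 pathway members 4 sit between 127.12 and 140.88, Tnfrsf13c and Traf2 lie lower, and Tnfrsf17 and Tnfsf13b are at 0.

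The promoters also differed in base composition. CpG-rich promoters were those where the GC content of the 1000 bp around the gene start reached 55% and the CpG ratio, observed over expected, reached 0.6. The 3 signalling genes Traf2, Traf3 and Map3k14 had CpG-rich promoters and the ligand and the 4 receptors did not. All 3 CpG-rich promoters had a DHS, against 85.5% of CpG-rich promoters in the genome. Of the 5 other promoters 3 had one, against 39.2%.

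Tnfsf13b, which encodes BAFF itself, had no DHS in its body of 28599 bp on chromosome 8 (10006843 to 10035441, plus strand). Its window held 2 DHS, with scores of 51.82 and 75.76, and both lay at the promoters of Lig4 and Abhd13, with the nearer 28263 bp upstream of the Tnfsf13b start. In the other direction the next DHS lay 395978 bp away, so the gene sat in a stretch of 424240 bp without a called DHS. BAFF is made mainly by myeloid and stromal cells. Of the 7 myeloid markers 5 had a promoter DHS, against 57.0% of all protein-coding genes. Their scores reached 57.27, while Csf1r and Lyz2 had none.

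Tnfrsf13c, which encodes BAFF-R, is a short gene of 2617 bp on chromosome 15 (82052174 to 82054790, minus strand), and it lay in a dense group of DHS. Its window held 16 DHS, at the 94.7th percentile of all genes, and at the 97.8th percentile per 100 kb of window. All 3 annotated TSSs lay inside 1 DHS of 1914 bp with a score of 78.77. The other 3 promoter DHS had scores of 51.17, 17.95 and 13.71. The DHS with the highest score was not at the promoter but beyond the 3′ end of the gene, centred 5040 bp downstream of the gene start (82048971 to 82050529), with a score of 136.09. That placed it 644th of 24945 distal DHS. A further pair of high-ranking distal DHS lay upstream, with scores of 90.08, centred 7977 bp from the gene start, and 86.85, which was nearer to a TSS of Cenpm, 8285 bp away.

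Tnfrsf13b, which encodes TACI, spans 22618 bp on chromosome 11 (60940257 to 60962874, plus strand), and its window also held 16 DHS. Its gene start fell in a gap of 101 bp between 2 narrow DHS, with scores of 26.61 upstream and 35.86 downstream. A higher-scoring DHS of 78.95 was centred 3491 bp upstream. The highest promoter score of the gene, 139.47, came from elsewhere, from a DHS of 2457 bp in intron 3 (60955891 to 60958347) that covered 3 internal starts of non-coding transcripts of the gene and also reached into the promoter window of an internal coding start, at 60954337. With the promoter of the gene start alone, the highest score was 78.95 in place of 139.47. Upstream of the promoter lay distal DHS with scores of 109.23 and 76.8, centred 17398 and 22248 bp from the gene start. The highest score in the window, 199.23, belonged to the promoter of the neighbouring gene Usp22.

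Tnfrsf17, which encodes BCMA, spans 6263 bp on chromosome 16 (11313905 to 11320167, plus strand), and its window held 2 DHS. One of them, with a score of 38.52, lay in intron 2 (11316279 to 11318087), and it began 2374 bp after the gene start. It therefore missed the promoter by 374 bp, and with promoters reaching 5 kb to either side of a TSS it would count as a promoter DHS of the gene. It also lay in the promoter region of Snx29, whose own start carried the other DHS, with a score of 111.93. On the upstream side no DHS was called for 58740 bp. Among plasma cell markers in the same list, Sdc1 and Prdm1 had promoter DHS with scores of 40.96 and 141.62.

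Cd40 spans 17322 bp on chromosome 2 (164881127 to 164898448, plus strand), and in contrast to the 3 BAFF receptors its promoter DHS was the highest of its window. This DHS, with a score of 137.57, was 2449 bp wide and covered 5 of 6 annotated TSSs. The other DHS in the gene body scored below the median of the list, with scores of 22.05 and 21.63 in intron 1 and 24.73 at the border of intron 8 and exon 9. Those in intron 1 counted as promoter DHS only through an internal start of a non-coding transcript, 7049 bp downstream of the gene start. No distal DHS of the window exceeded 41.05. The second-highest score of the window was that of the DHS at Ncoa5, with 56.46.

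**Figure D2:**
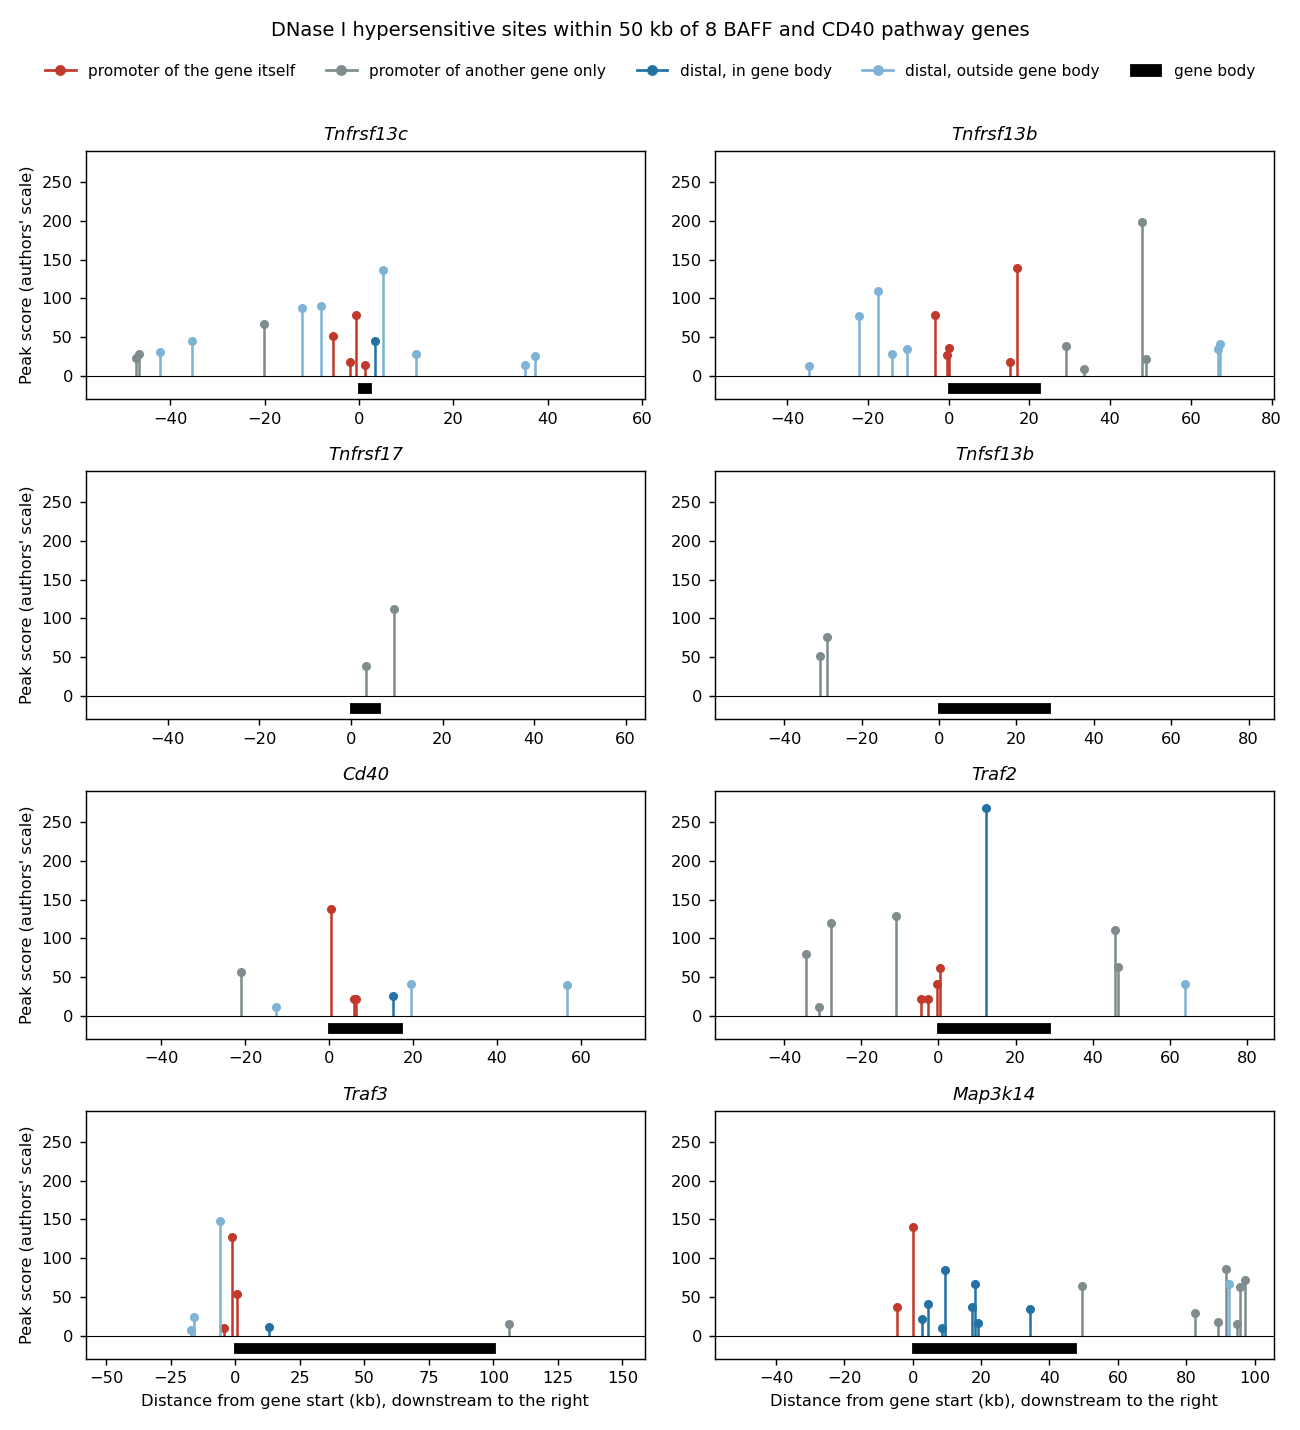
Score of each DHS (vertical axis, the authors' score) against the distance of its centre from the gene start in kb (horizontal axis, downstream to the right) for each of the 8 genes; colours give the class of the DHS and the black bar the gene body. The bodies of Tnfsf13b and most of Traf3 carry no DHS, Map3k14 carries 9 in its body, and the highest DHS of Traf2, at 268.52, lies inside the gene.

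Traf2 encodes an adaptor that brings the ubiquitin ligases cIAP1 and cIAP2 to the receptor complex, and spans 28959 bp on chromosome 2 (25373502 to 25402460, minus strand). It held the highest-scoring DHS of all 8 windows, with a score of 268.52, in intron 4 of a transcript with 11 exons (25389097 to 25391160, 2064 bp wide). This DHS was at the 98.6th percentile of all DHS and ranked 86th of 24945 distal DHS. The promoter DHS ranked lower, with scores of 61.11 (percentile 71.1) over the gene start and 40.57, 21.74 and 21.04 farther upstream. Most other DHS of the window belonged to neighbours, such as those at Edf1 (128.51) and Mamdc4 (119.95).

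Traf3 encodes the adaptor whose loss releases NIK, and spans 100784 bp on chromosome 12 (112404581 to 112505364, plus strand). None of its 6 TSSs lay inside a DHS. The first 4, within 178 bp, fell in a stretch of 646 bp between a promoter DHS of 127.12 upstream (112402135 to 112404341) and a lower-scoring one of 53.51 in intron 1. The highest score, 147.78, was that of a distal DHS centred 5930 bp upstream, which ranked 529th of 24945 distal DHS. The body held 2 DHS in all, and its last 87465 bp, or 86.8%, held none. That number was usual for its length, since the median over 2367 genes at least as long was also 2, with quartiles of 0 and 5.

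The DHS-free stretch at the Traf3 start coincided with an extreme base composition. The 1000 bp around the gene start had a GC content of 76.5%, which 113 of 22350 genes (0.506%) reached or exceeded. Among genes with a promoter DHS, the gene start itself lay inside a DHS for 60.5% of those with a GC content below 55%, for 81.5% from 55% to below 65% and for 71.5% from 65% to below 70%. The share was 49.2% from 70% to below 75% and 21.5% (Wilson interval 16.2 to 28.0, n = 186) at 75% or more, so it was highest in the middle of the range. The part of base composition in the gap at Traf3 was not tested. The TACI gene start, with a GC content of 53.9%, also lay between DHS, and it belongs to the group below 55%. The 2 cases are not alike, since the gap at TACI was only 101 bp and its gene start lay 11 bp from the next DHS. A coding start of TACI 34 bp downstream of the gene start was inside that DHS, whereas no TSS of Traf3 was inside any.

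Map3k14, which encodes NIK, spans 47711 bp on chromosome 11 (103081076 to 103128786, minus strand), and its window held the most DHS of the 8, with 18, at the 96.8th percentile. Per 100 kb of window the gene stood at the 93.7th percentile. Its promoter DHS of 140.88 (103127871 to 103129627) covered the gene start and is shared with the promoter of the gene 1700028N14Rik on the other side. Inside the body lay 9 DHS, at percentile 98.1 of all genes by number and at percentile 87.9 per 100 kb of body. Of these, 7 were distal DHS in intron 1, with scores of 85.23, 66.88, 40.96, 36.63, 20.91, 15.61 and 10.21. They fell into 3 groups, with centres 2644 to 4581 bp, 8671 to 9323 bp and 17415 to 18998 bp downstream of the gene start. An eighth distal DHS, with a score of 34.78, lay in intron 6. A cluster at Fmnl1, with scores up to 86.04, accounted for much of the rest of the window.

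The 8 genes thus differed in where their highest-scoring DHS lay. A distal DHS of the window scored above the highest promoter DHS at Tnfrsf13c, Traf2 and Traf3, which is 3 of the 6 genes with a promoter DHS, against 20.6% of such genes in the genome. At Traf2 the distal score was 268.52 against 61.11, at Tnfrsf13c 136.09 against 78.77, and at Traf3 147.78 against 127.12. At Cd40 the order was opposite, with 137.57 (percentile 91.4 of all DHS) at the promoter and 41.05 (percentile 58.5) at the highest distal DHS. At Tnfrsf13b and Map3k14 the distal scores of 109.23 and 85.23 were also below the promoter scores. At Tnfrsf13b this order depended on the definition of the promoter, since with the gene start alone the promoter score was 78.95, while the DHS of 139.47 in intron 3 lay outside that promoter. A distal DHS is placed here by distance alone, and which gene it acts on was not measured.

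**Figure D3:**
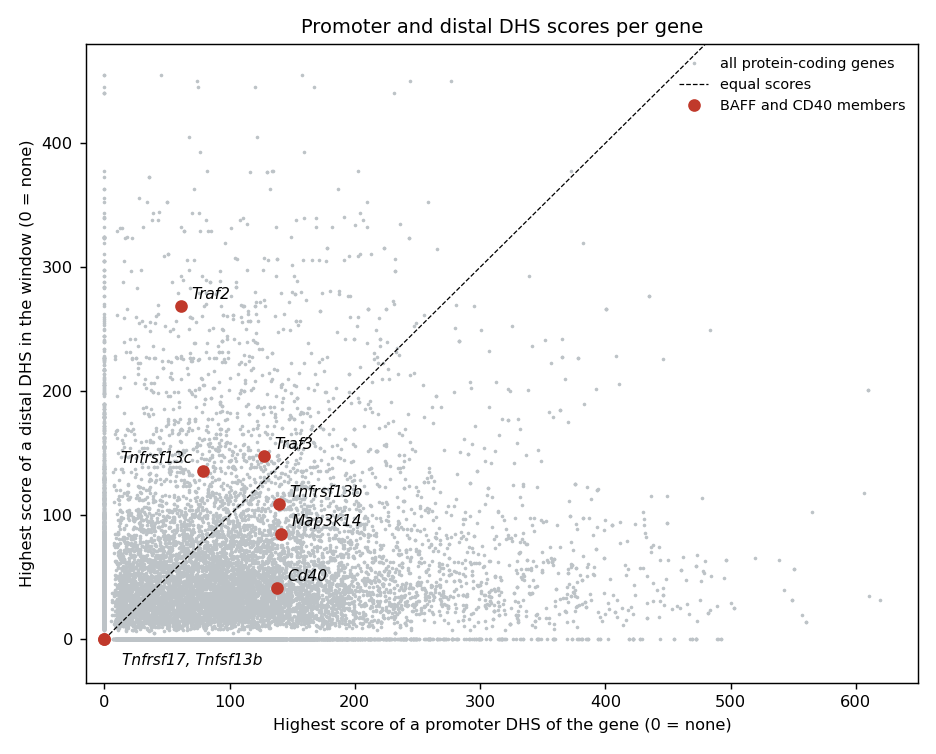
Highest promoter DHS score (horizontal axis) against the highest score of a distal DHS in the window (vertical axis), both in the authors' score with 0 for none; grey points are all protein-coding genes, red points the 8 pathway genes and the dashed line marks equal scores. Traf2, Tnfrsf13c and Traf3 lie above the line, Tnfrsf13b, Map3k14 and Cd40 below it, and Tnfrsf17 and Tnfsf13b at the origin.

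Counted over whole windows, all 8 genes had at least 1 DHS, against 77.0% of genes, and 7 had at least 1 in the body, against 57.9%. In 6 of the 8 windows the highest score reached the 90th percentile of all DHS, against 42.8%. At least 3 promoter DHS were found at 5 genes, namely Tnfrsf13b, Tnfrsf13c, Traf2, Cd40 and Traf3, against 12.0% of genes. This count included internal starts. With the gene start alone Cd40 had 1 promoter DHS and Tnfrsf13b had 3, and the share of all genes was not computed for that setting. The number per window ran from 2 to 18 with a median of 10, against 5 over all genes. Several of these DHS belonged to neighbouring genes, and of the 82 DHS 21 lay at the promoter of the pathway gene itself, 26 at the promoter of another gene alone, 12 were distal in the body and 23 distal outside it. For 42 of the 82 the nearest TSS was that of the pathway gene. A share of 57.3% overlapped any promoter (Wilson interval 46.5 to 67.5). The share over all DHS, 47.5%, lay within that interval. The DHS of the windows had a median width of 877.5 bp against 760 bp and a median score of 40.055 against 32.65.

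The wider pathway list held the other ligands, the adaptors, the kinases and subunits of NF-kB signalling and survival genes, of which 21 were found. A promoter DHS was called at 19 of the 21, against 57.0% of all genes, and the list median of the highest promoter score was 104.42. The 2 genes without one were Tnfsf13, which encodes the BAFF relative APRIL, and Cd40lg, which encodes the ligand of CD40 on T cells. Together with Tnfsf13b, all 3 ligand genes in the lists were thus without a promoter DHS. None of the 3 had a CpG-rich promoter, and of all genes without a CpG-rich promoter only 39.2% had a promoter DHS. With promoters reaching 5 kb to either side of a TSS, Tnfsf13 gained one, with a score of 97.65, and Tnfsf13b and Cd40lg did not. The highest scores were those of Traf1 (358.15) and Traf5 (328.07), which encode further TRAF adaptors, and Tnfaip3 (327.76), which encodes the NF-kB inhibitor A20, all above the highest of the 8 members. Of the 21 promoters 14 were CpG-rich, a class in which 85.5% of genes had a promoter DHS genome-wide.

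Words of transcription factors were searched in the central 300 bp of each DHS, on both strands. The words were GAGGAAGT for PU.1, ATGCAAAT for the octamer, CCCNNGGGA for EBF, GAAANNGAA for ISRE, TGTGGTT for Runx, CAGCTG for the E box, TGANTCA for AP-1 and a degenerate word for NF-kB. The E box was the most frequent, in 17.1% of the 82 DHS (Wilson interval 10.5 to 26.6) against 17.5% of all DHS. The NF-kB word lay in 1.22% (0.216 to 6.59) against 4.60%, and the ISRE word in 3.66% (1.25 to 10.2) against 9.26%. The octamer lay in 0 of 82 (Wilson interval 0 to 4.48) against 1.64% of all DHS; by the other bound used for a count of 0, which is 3 counts of the total, a share of up to 3.66% is allowed. For all 8 words the interval held the share of all DHS, so no difference was detectable with 82 DHS.

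**Figure D4:**
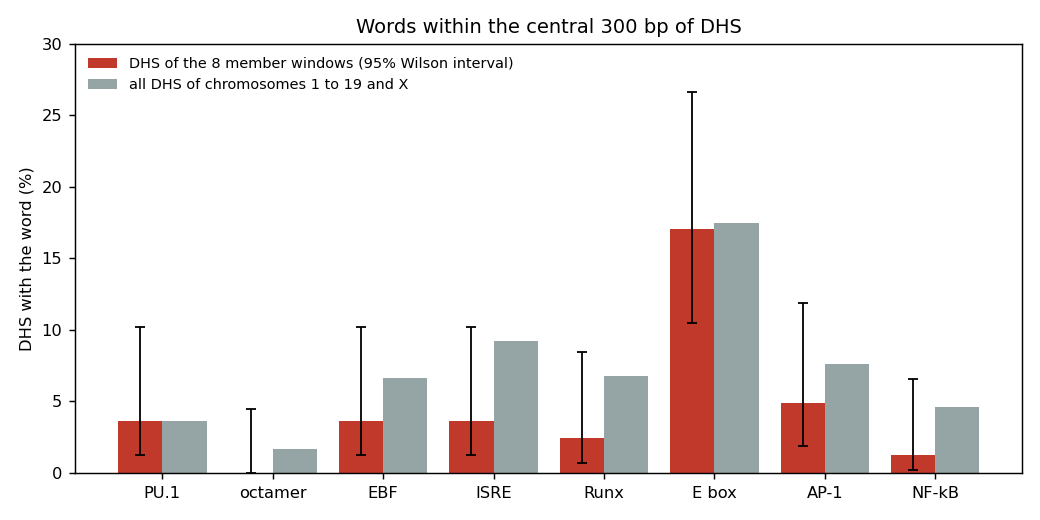
Share of DHS (vertical axis, %) that hold each of 8 words within the central 300 bp; red bars are the 82 DHS of the pathway windows with 95% Wilson intervals, which cover counting error only, and grey bars are all 47474 DHS. Each interval includes the grey bar beside it, from the E box (17.1% against 17.5%) to NF-kB (1.22% against 4.60%).

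In the central 300 bp the AP-1 word lay in 4.88% of the 82 DHS (1.91 to 11.9) against 7.61% of all DHS, and among DHS at or above the median score in 6.0% against 6.51%. Over whole peaks the order was opposite, with 36.6% (27.0 to 47.4) against 21.1%, while the other 7 words had intervals that held the share of all DHS. Since the DHS of the windows were wider, the density was also compared, and it was 0.494 AP-1 words per kb against 0.273. The Traf2 DHS of 268.52 held 2 AP-1 and 2 NF-kB words in its whole width. DHS of a window are neighbours and the word was singled out among 8 after its value was seen, so this is a description of these 82 DHS. A match to a word is no measurement of binding.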

How the data were processed

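Splenic B cells gave 1 DNaseI library and 1 input library. Per the labels, reads were aligned to mm9 with BWA 0.6.2 and handled with SAMtools. The deposited peak list gives chromosome, start, end, a MACS name and a score, which is the authors' value per peak. Its scale and the depth are not given in the sources used here. The study states a MACS version and p-value option under ChIP-seq, and whether they also cover this list is not stated. Whether replicates or animals were pooled is likewise not stated.

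Peaks were assigned to GENCODE M1 genes on NCBIM37 by an overlap of at least 1 bp, and all positions count from 1. Percentiles were taken among 22350 protein-coding genes, with genes lacking a promoter DHS at 0. Words were searched on both strands, and intervals are 95% Wilson intervals that cover counting error only. With 1 library no test between samples was made, and no p-value is given. The work used Python 3.11.15, pandas 2.3.3, scipy 1.17.1 and pysam 0.24.0, and the counting steps were tested on simulated data.

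The 8 members, the pathway list, the markers and the words were chosen with earlier results of these data known. By rule, all 8 members are named. From the wider list the genes lacking a promoter DHS and the 3 highest are named, and neighbours are named where their TSS was nearest to 1 of the 3 highest DHS of a window or their promoter overlapped that of a member. Alternatives changed the score threshold, promoter window, overlap, flank, peak merging and motif window. A promoter sequence table on GRCm38.p6 and 1 gene of the wider list were not used here.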

Additional observations from a re-analysis of the deposited data

How the results depend on the processing

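A promoter DHS was called at 6 members with scores at or above the median (50.3% of all protein-coding genes), with 1 kb on either side of a TSS (53.7%), with the peak centre in the promoter (56.5%) and with the gene start alone (54.6%), and at 7 with 5 kb on either side (58.7%), when Tnfrsf17 entered. The gene start alone and the 5 kb setting were added after seeing the data. The number of DHS in the windows was 82 and became 50 at or above the median score, 44 with 10 kb flanks and 24 in gene bodies alone, and the median per window moved from 10 to 6, 5.5 and 2.5. The median percentile of the promoter score was 71.69 and became 73.22 with 1 kb, 65.38 with the gene start alone and 81.96 with 5 kb on either side. The median percentile of the number of DHS was 78.61 and became 78.03 at or above the median score, 88.05 with 10 kb flanks, 68.35 with 100 kb flanks, 82.97 in gene bodies, 81.98 with peaks merged within 500 bp and 79.86 per 100 kb. The share of DHS at promoters was 57.3% and became 37.8% with 1 kb. Over whole peaks the shares with a word were 10.98% for PU.1, 18.29% for EBF, 19.51% for ISRE, 14.63% for Runx, 47.56% for the E box, 36.59% for AP-1 and 12.2% for NF-kB, since more sequence was searched, and NF-kB fell to 0 at or above the median score. Of the other 29 alternative values, the number of DHS in the windows became 121 with 100 kb flanks and 64 with merging, and the median per window 13 and 8.5. The rest were promoter counts, which changed by at most 1 gene (the pathway list from 19 to 18 with 1 kb and to 20 with 5 kb on either side), shares within the interval of the main value, and percentiles of 71.69 and 72.2. No paired analysis was possible because there was 1 library with a peak list and the labels give no replicate numbers.

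The peak list holds no depth, so a promoter without a DHS cannot be told apart from one with too few reads, and no value here has a replicate error.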

Other observations

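The p53 response element, searched as 20 bases with at most 2 mismatches because the wider study concerns p53, lay in 1 of the 82 DHS of the windows (1.22%) and in 484 of all 47474 (1.02%). The DHS that held it was the one in intron 6 of Map3k14, with a score of 34.78. No p53 binding was measured in these data.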
